A study of Rattus norvegicus with 6 samples.

Results

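Tissue inhibitors of metalloproteinases (TIMPs) and matrix metalloproteinases (MMPs) were examined at the mRNA level in rat myocardium after sham surgery or coronary ligation. The 10 genes were Timp1, Timp2, Timp3, Timp4, Mmp2, Mmp3, Mmp8, Mmp9, Mmp12 and Mmp14, taken by their symbols from the 32623 genes of the deposited table. The set was chosen by the measured ischemia against sham difference of Timp1 and Mmp12, both far higher after ischemia in these same samples. Their own ischemia against sham values are therefore given as a description, without a p-value for any of them.

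MMPs are zinc-dependent enzymes that cleave collagens, gelatin, elastin and other proteins of the extracellular matrix. Most are made as inactive precursors that other proteases activate, and the 4 TIMPs block the active enzymes by binding in their catalytic cleft. In heart muscle, fibroblasts are a main source of Mmp2, Mmp14 and several TIMPs, neutrophils store the proteins of Mmp8 and Mmp9 in granules, and macrophages are the usual source of Mmp12. Transcript levels report neither the amount of protein nor its activity.

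Both groups were wild-type male rats, with 3 samples each. In the ischemia group a ligature had closed the left anterior descending (LAD) coronary artery for 30 min, and the sham group carried the label sham, for which no ligation is described. The labels do not say whether the tie was released before the tissue was taken, nor which region of the heart was sampled, and no age or strain is given. Each sample carried a replicate number from 1 to 3, and p-values measure only the spread between these samples.

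Read totals ranged from 68529126 to 79591989 per library, and 3 counts in a library corresponded to a relative count (CPM) of 0.0371 to 0.0459. Of the genes that define heart muscle, cardiac troponin T (Tnnt2) ranged from 2564 to 6231 FPKM and the myosin heavy chain Myh6 from 437 to 4799 FPKM over the 6 libraries. Ventricular light chains were less even, with Myl2 at 366, 2795 and 346 FPKM and Myl3 at 796, 9024 and 1021 FPKM in sham 1, 2 and 3. FPKM are fragment counts divided by transcript length and library size, so that levels of different genes can be set side by side. Atrial genes were uneven, with a summed FPKM of 4 atrial markers of 48341, 215 and 39203 in sham 1, 2 and 3 and of 9610, 2078 and 1279 in ischemia 1, 2 and 3. Nppa held 2051 and 1251 FPKM of the sums of ischemia 2 and 3, and 67.7 FPKM of that of sham 2. The other atrial markers, Myl7, Myl4 and Sln, were each lower in ischemia 2 and 3 than in sham 2. Sham 1 stood apart in another way, since it held 161 reads over 48 Y-chromosome genes against 3218 to 8970 in the other 5 libraries, although all rats were labelled male. Ischemia 2 stood apart in leukocyte genes, as described with Mmp8 and Mmp9. The part of these differences in the results was not tested, and values without these libraries are given where they matter.

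Timp1, a secreted inhibitor of most MMPs, had the highest level of the 10 genes in every ischemia library. In the sham libraries it stood at 23.9, 17.0 and 23.0 FPKM (21.3 ± 3.77, SD, n = 3). In the ischemia libraries it stood at 665, 1215 and 644 FPKM (842 ± 324, SD, n = 3). The groups did not overlap, and the lowest ischemia library was far above the highest sham library. The ratio of the group means was 39.5, and the log2 fold change fitted by edgeR was 5.21 ± 0.31 (SE). Timp1 passed from rank 2726, 3270 and 2941 among all genes of the sham libraries to rank 145, 59 and 138 in the ischemia libraries. Leaving out any 1 library kept the log2 fold change between 4.92 and 5.34.

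Timp2, which inhibits MMPs and also helps Mmp14 to activate the Mmp2 precursor at the cell surface, was the most abundant TIMP of sham tissue. It stood at 176, 102 and 195 FPKM in sham (158 ± 49.1, SD, n = 3). In ischemia it stood at 92.2, 70.4 and 62.4 FPKM (75.0 ± 15.4, SD, n = 3). Every ischemia library was below every sham library, with the closest pair at 92.2 and 102 FPKM. The log2 fold change was -1.13 ± 0.25 (SE), a level 2.10 times lower in ischemia. Timp2 was not among the genes called lower in edgeR.

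Timp3, the TIMP that is held in the matrix, had values of 78.6, 41.7 and 81.5 FPKM in sham and of 27.6, 39.0 and 54.7 FPKM in ischemia. The groups overlapped, since sham 2 was below ischemia 3, and the log2 fold change was -0.78 ± 0.33 (SE). Timp4, the TIMP best known from heart tissue, had values of 13.7, 20.4 and 10.2 FPKM in sham and of 23.0, 5.21 and 13.1 FPKM in ischemia. Its groups overlapped fully, and its log2 fold change of -0.22 ± 0.60 (SE) was smaller than its error, with a 95% interval from -1.67 to 1.23. The sign of this value turned to 0.24 without sham 2 and to 0.19 without ischemia 2.

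Of the 6 MMPs of the set, Mmp2 and Mmp14 had the highest levels in sham tissue. Mmp2, or gelatinase A, which degrades gelatin and basement membrane collagen, stood at 92.2, 84.5 and 165 FPKM in sham (114 ± 44.7, SD, n = 3). In ischemia it stood at 95.9, 35.2 and 42.0 FPKM (57.7 ± 33.3, SD, n = 3). Ischemia 1 lay within the sham range and the other two ischemia libraries lay below it, and the log2 fold change was -1.04 ± 0.46 (SE). Mmp14, a membrane-anchored collagenase that activates the Mmp2 precursor, stood at 20.5, 18.0 and 31.7 FPKM in sham and at 29.0, 29.6 and 21.9 FPKM in ischemia. These ranges overlapped, and the log2 fold change of 0.12 ± 0.22 (SE) had a 95% interval from -0.40 to 0.64. Fibroblast markers were low in the same ischemia libraries as Mmp2: the summed FPKM of 7 such genes was 1318, 804 and 2432 in sham and 807, 312 and 314 in ischemia. All of these 7 genes had a log2 fold change below 0. At an adjusted p under 0.05, 0 of them passed as lower in edgeR, 4 in DESeq2 and 1 in limma. Of all tested genes, these tools called 1.53%, 12.5% and 1.88% lower. At an unadjusted p under 0.05 in edgeR, 4 were lower, beside 14.2% of all tested genes. In tissue RNA, fewer cells of a type and less RNA per cell cannot be told apart.

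Mmp8, the neutrophil collagenase, was close to absent in sham, with 10, 27 and 19 reads. The ischemia libraries held 491, 11315 and 768 reads of Mmp8. The corresponding levels ran to 0.050, 0.133 and 0.106 FPKM for sham and to 2.44, 61.8 and 4.43 FPKM for ischemia. All ischemia libraries were above all sham libraries, and ischemia 2 alone was 18.0 times the mean of the other two. The log2 fold change was 7.63 ± 1.55 (SE) and dropped to 5.04 without ischemia 2.

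Mmp9, or gelatinase B, had 0, 37 and 8 reads in sham and 1209, 7211 and 1282 reads in ischemia. Its level was 0, 0.144 and 0.032 FPKM in sham and 4.65, 30.5 and 5.73 FPKM in ischemia. The groups did not overlap and ischemia 2 was again the highest, at 5.88 times the mean of ischemia 1 and 3. The log2 fold change was 7.54 ± 1.52 (SE), with 6.27 when ischemia 2 was left out and 9.53 when sham 2, which held 37 of the 45 sham reads, was left out.

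Mmp12, the macrophage elastase, had 0 reads in each of the 3 sham libraries. The ischemia libraries held 108, 2564 and 1850 reads, or 0.729, 19.1 and 14.6 FPKM. Ischemia 1 was thus well below the other two for this gene. With the sham level set to a floor of 3 counts per library, the ischemia mean of Mmp12 on the CPM scale was at least 485-fold higher, and at least 346-fold higher without ischemia 2. Library by library, this bound was 31.8, 762 and 660. A fitted fold change for Mmp12 depends on the prior count and is not given.

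Mmp3, or stromelysin 1, which cleaves proteoglycans and activates other MMP precursors, was near the limit of detection. It had 0, 0 and 4 reads in sham and 15, 153 and 4 reads in ischemia, so that 1 library of each group tied at 4 reads and ischemia 2 held most of the rest. Its mean level over the 6 libraries was below 0.5 FPKM, and it was not tested. The ratio of summed counts, scaled by library size, was 40.6, with an exact 95% counting interval from 15.6 to 151 that covers counting error only. Without ischemia 2 it was 6.93 (2.30 to 28.0).

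**Figure D1:**
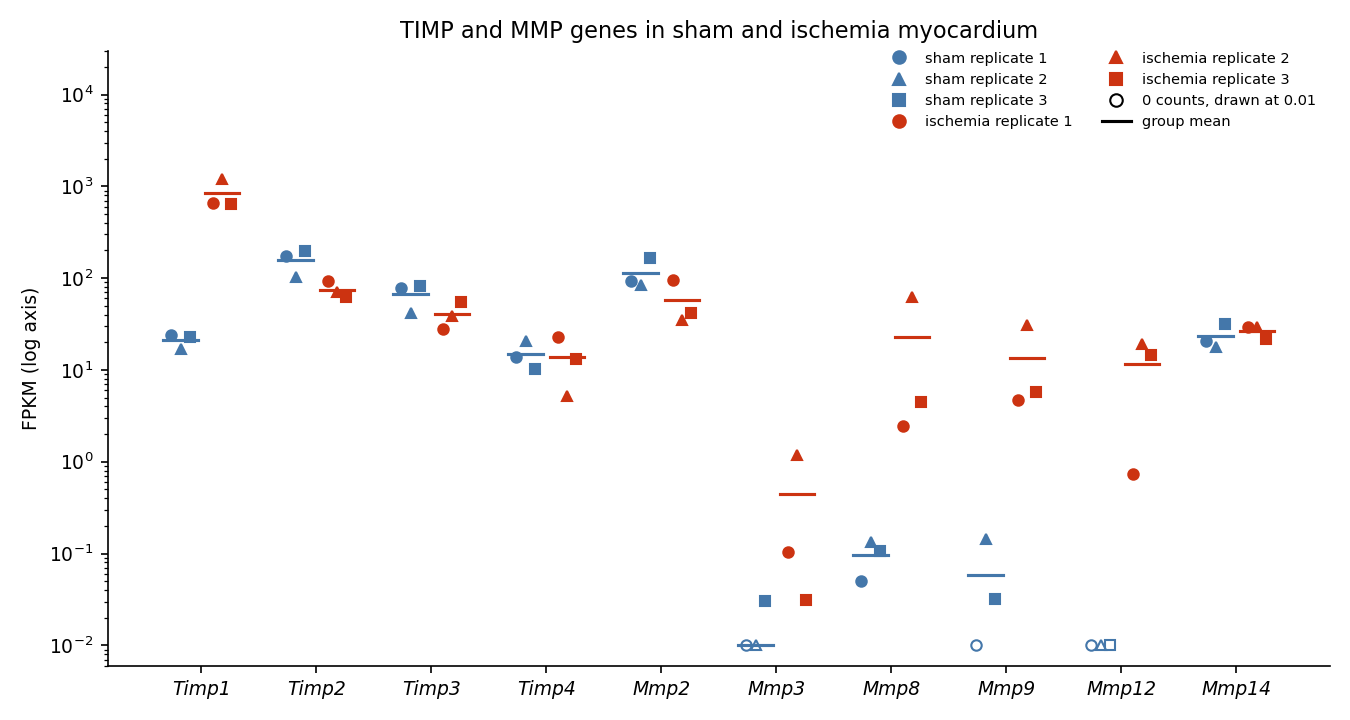
FPKM of the 10 genes on a log axis, with 1 point per library (blue sham, red ischemia, n = 3 each), a line at each group mean and open symbols, drawn at 0.01, for libraries with 0 reads. Timp1 lies at 644 to 1215 FPKM in ischemia against 17.0 to 23.9 FPKM in sham, while Timp3, Timp4, Mmp2 and Mmp14 overlap between the groups.

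Of the 10 genes, 9 reached a mean of 0.5 FPKM and entered the test. Timp1, Mmp8, Mmp9 and Mmp12 were called higher at an adjusted p under 0.05 in edgeR, beside a background of 5.18% of all 13964 tested genes (6.71% in either direction). By edgeR 0 of the 9 were called lower, against a background of 1.53%. At an unadjusted p under 0.05, 1 was lower in edgeR, beside 14.2% of all tested genes. The adjusted count of lower calls was 1 by DESeq2, which called 12.5% of all tested genes lower, and 0 by limma, which called 1.88% lower. Nothing is read from these counts, since the set was chosen on this contrast. Ischemia ranges lay above sham ranges for the same 4 tested genes (background 23.6%) and below them for Timp2 alone (background 15%). The median log2 fold change of the 9 tested genes was 0.12, also with Mmp12 at its bound, and that of all tested genes was -0.0015. The count of 4 fell to 2 without ischemia 2, where 3.21% of all genes were called higher. It fell to 0 without sham 1, sham 2, sham 3 or ischemia 3, where 0 genes of the whole table passed. Without ischemia 1, Timp2 and Mmp2 were called lower, beside 7.96% of all genes in that fit. Mmp8, Mmp9 and Mmp12 reached the filter of 0.5 FPKM only through the ischemia libraries, in which they were high.

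The order of the levels differed between the groups. In sham it ran Timp2, Mmp2, Timp3, Mmp14, Timp1, Timp4, Mmp8, Mmp9, Mmp3 and Mmp12 by mean FPKM. Neighbours whose ranges did not overlap were Mmp2 and Timp3, Timp3 and Mmp14, and Timp4 and Mmp8; other neighbours did not differ beyond their spread. In ischemia it ran Timp1, Timp2, Mmp2, Timp3, Mmp14, Mmp8, Timp4, Mmp9, Mmp12 and Mmp3. There Timp1 was separated from Timp2, and all other neighbours overlapped.

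The make-up of the TIMP transcripts differed between the groups, mostly through Timp1. Timp1 made up 8.19%, 9.37% and 7.42% of the summed TIMP FPKM in the sham libraries and 82.3%, 91.4% and 83.2% in the ischemia libraries. Timp2 went the other way, from 60.2%, 56.4% and 63.0% in sham to 11.4%, 5.30% and 8.05% in ischemia. The summed TIMP level itself was 292, 181 and 310 FPKM in sham and 808, 1330 and 775 FPKM in ischemia. Timp1, on which the set was chosen, fills these sums. Of the TIMP sum without Timp1, Timp2 made up 65.6%, 62.2% and 68.0% for the sham libraries and 64.6%, 61.4% and 47.9% for those of ischemia.

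The 6 MMP genes summed to 113, 103 and 197 FPKM in sham and to 133, 177 and 88.6 FPKM in ischemia, so that these ranges overlapped. Within that sum, Mmp2 made up 81.8%, 82.2% and 83.8% in sham and 72.2%, 19.8% and 47.4% in ischemia. Mmp3, Mmp8, Mmp9 and Mmp12 together made up 0.0447%, 0.270% and 0.0850% in sham and 5.97%, 63.5% and 27.9% in ischemia. In ischemia 2, Mmp8 alone held 34.8%, more than any other MMP of that library. The ratio of summed TIMP to summed MMP FPKM was 2.59, 1.76 and 1.57 in sham and 6.08, 7.49 and 8.74 in ischemia. Without Timp1 the same ratio was 2.38, 1.60 and 1.45 in sham and 1.07, 0.646 and 1.47 in ischemia, so that the higher ratio in ischemia rested on Timp1. These ratios compare transcripts and not inhibitor with enzyme.

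**Figure D2:**
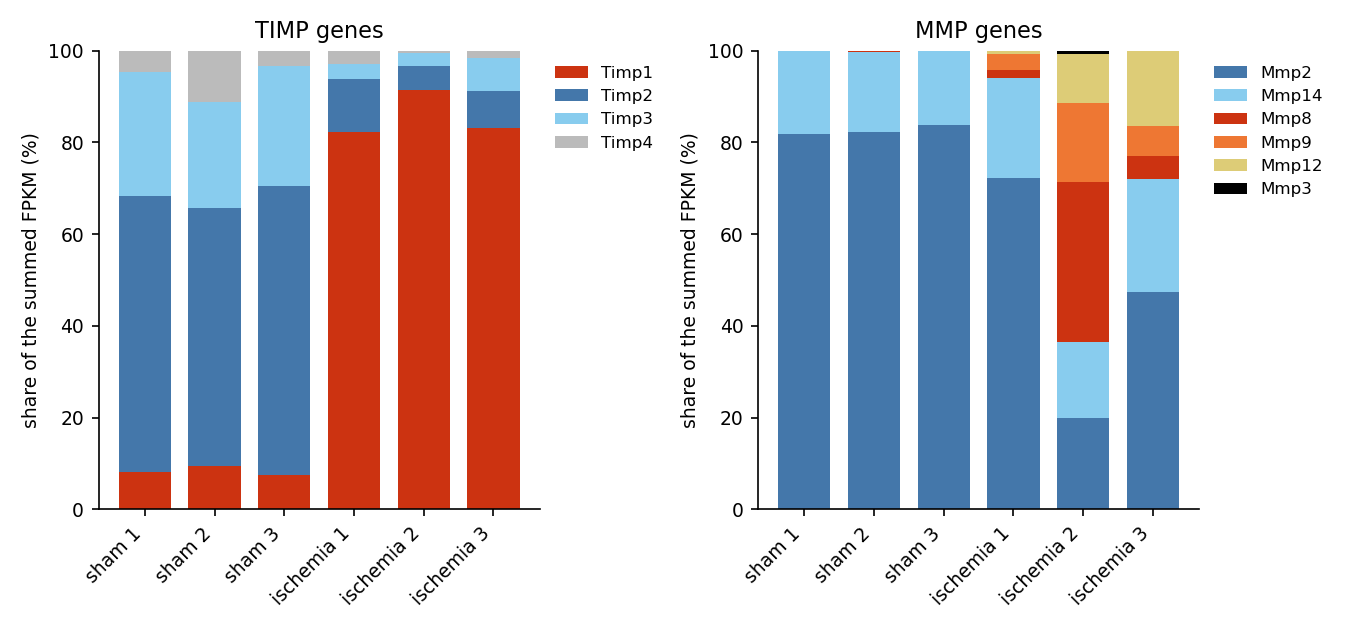
Stacked bars of each gene's share (percent) of the summed FPKM of the 4 TIMP genes (left) and the 6 MMP genes (right), with 1 bar per library. Timp1 fills 82.3% to 91.4% of the TIMP sum in ischemia, and the MMP sum is mostly Mmp2 in sham but ranges from 19.8% to 72.2% Mmp2 in ischemia.

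Mmp3, Mmp8 and Mmp12 belong to a cluster of MMP genes on chromosome 8. The deposited table lists 10 MMP genes there between positions 5522739 and 5901049, a span of 378311 bases with no other gene, in a genome build not given in the sources used here. Of these, 7 had 0 reads in all sham libraries and 3 (Mmp1b, Mmp1 and Mmp20) had 0 reads in all 6 libraries. Besides Mmp12, a further 3 genes were at 0 in sham with some reads in ischemia. Mmp13, the collagenase of rodent tissue, held 0, 122 and 25 reads in ischemia 1, 2 and 3. Mmp10, or stromelysin 2, held 0, 57 and 83 reads, and Mmp7, or matrilysin, held 15, 22 and 6 reads. Mmp27 held 70 reads in sham 3 and 0 in the other 5 libraries. These low counts are descriptions, and ischemia 1 had the fewest reads of the ischemia libraries for Mmp12, Mmp13, Mmp10 and Mmp8. For Mmp3 and Mmp7 ischemia 3 had the fewest.

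**Figure D3:**
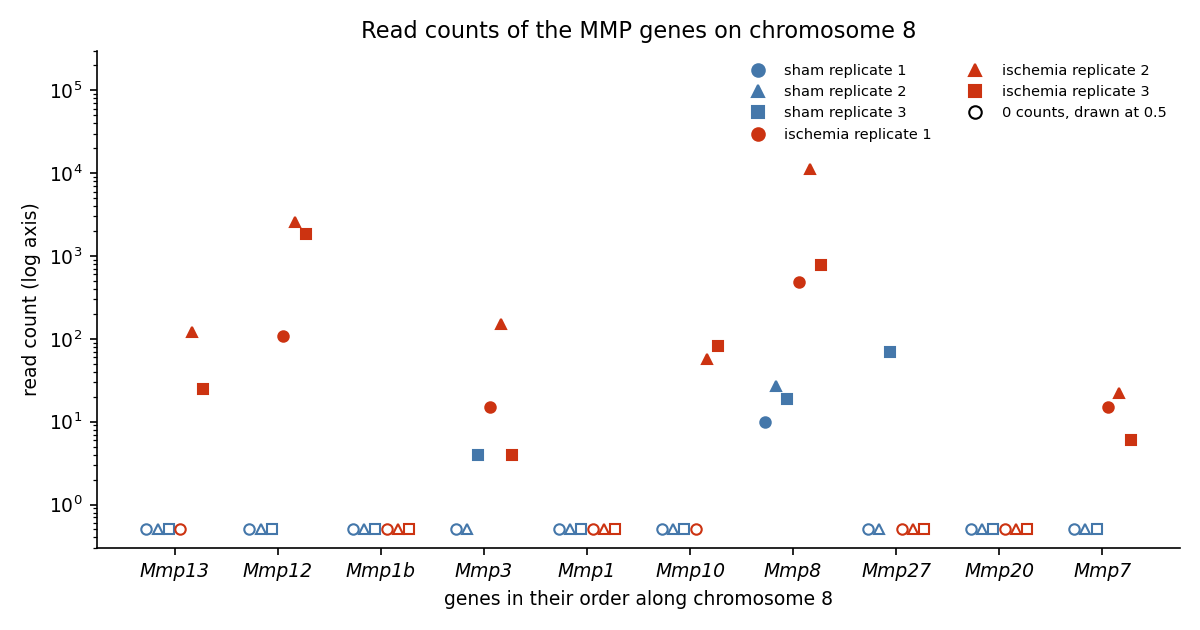
Read counts (log axis) of the 10 MMP genes of chromosome 8 in their order along the chromosome, with 1 point per library and open symbols, drawn at 0.5, for 0 reads. Mmp12, Mmp13, Mmp10 and Mmp7 have 0 reads in all sham libraries and reads in 2 or 3 ischemia libraries.

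Promoter sequences are shown for the cluster genes with reads in ischemia, 4 of which had none in sham, and for Timp1. AP-1 is a dimer of Fos and Jun proteins known to bind the promoters of several MMP genes. Each line gives 60 bases, from 110 to 51 bases before the start of the gene, 5′ to 3′ on the gene's strand, from RefSeq in build GRCr8. Capitals mark a match to the AP-1 motif TGANTCA, where N is any base.
Mmp12 (chr8:12866542-12866601, plus strand): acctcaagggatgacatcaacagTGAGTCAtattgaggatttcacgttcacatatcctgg
Mmp3 (chr8:12925171-12925230, plus strand): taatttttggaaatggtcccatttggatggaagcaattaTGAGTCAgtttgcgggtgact
Mmp13 (chr8:12782719-12782778, plus strand): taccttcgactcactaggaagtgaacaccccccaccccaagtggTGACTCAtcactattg
Mmp10 (chr8:12974597-12974656, plus strand): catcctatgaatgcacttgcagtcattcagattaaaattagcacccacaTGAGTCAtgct
Mmp7 (chr8:13132933-13132992, plus strand): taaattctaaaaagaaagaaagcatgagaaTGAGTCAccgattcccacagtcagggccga
Mmp8 (chr8:13008780-13008839, plus strand): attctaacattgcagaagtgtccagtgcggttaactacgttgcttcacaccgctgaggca
Timp1 (chrX:3771173-3771232, minus strand): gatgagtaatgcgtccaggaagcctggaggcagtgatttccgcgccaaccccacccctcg
The first 5 genes hold an exact match in this stretch, and Mmp8 and Timp1 do not. Near matches, such as tgagtaa in the stretch of Timp1, were not counted. Of the cluster genes not shown, Mmp1 and Mmp20 also hold an exact match in this stretch, and Mmp1b and Mmp27 do not.

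The motif search covered 250 bases before to 50 bases after each start, on both strands, and counted exact matches only. TGANTCA was found in the promoters of 7 of the 10 cluster genes, beside 7.33% of the 33469 rat promoters in the RefSeq table. It occurred in 0 of the 4 TIMP promoters and in 2 of the 7 promoters found for the 10 TIMP and MMP genes, those of Mmp3 and Mmp12. Promoters of Mmp2, Mmp9 and Mmp14 were not analysed here. The ETS motif AGGAAG was found in 6 of the 10 cluster genes and 2 of the 4 TIMPs, beside 34.5% of all promoters. The NF-kB motif, searched as 3 G and 2 C with any 5 bases between them, was found in 1 of the 10 cluster genes and 4 of the 4 TIMPs, beside 47.3%. The hypoxia element ACGTG was found in 5 of the 10 cluster genes and 0 of the 4 TIMPs, beside 19.3%. A match describes letters and not a bound factor, and Mmp1 and Mmp20, which had 0 reads throughout, also held the AP-1 motif.

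Summed leukocyte markers were higher in ischemia than in sham, as were Mmp8, Mmp9 and Mmp12. Mmp12 stood at 0.729, 19.1 and 14.6 FPKM in ischemia 1, 2 and 3, whereas the neutrophil sum was alike in ischemia 1 and 3. The summed FPKM of 15 neutrophil genes was 11.2, 20.1 and 12.6 in sham and 519, 3919 and 519 in ischemia. S100a8 held 216, 1176 and 198 FPKM of the ischemia sums and S100a9 held 242, 2224 and 241 FPKM, together the greater part of each. Of the 12 tested, 8 passed the adjusted threshold in edgeR as higher (background 5.18%), among them S100a8 and S100a9, the calgranulin subunits. The defining granule gene Ltf was at 0 reads in all 6 libraries, and Mpo was at 0, 0.497 and 3.78 FPKM in sham and at 0, 0.017 and 0 FPKM in ischemia. The summed FPKM of 11 monocyte and macrophage genes was 193, 149 and 271 in sham and 998, 5847 and 1891 in ischemia, with 7 of 11 called higher in edgeR, among them Cd68, Cd14 and the lysozyme gene Lyz2. Lyz2 alone made up 56.1% to 63.7% of this sum in sham and 74.7% to 81.2% in ischemia. Adgre1, a standard macrophage marker, had a log2 fold change of -1.13 ± 0.43 (SE; adjusted p = 0.135, edgeR).

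Ischemia 2 was the highest library for both lists, at 7.56 times the mean of ischemia 1 and 3 for the neutrophil list and at 4.05 times for the monocyte and macrophage list. It was the highest ischemia library for Timp1 as well, but by a smaller ratio of 1.86, and its Timp4 and Mmp2 values were 0.289 and 0.511 of that mean. The 6 endothelial genes summed to 201 to 210 FPKM in sham and to 183 to 211 FPKM in ischemia. Of these, 0 passed in edgeR, 1 in DESeq2 and 0 in limma, and 1 had an unadjusted p under 0.05 in edgeR. Both were in the lower direction, beside 12.5% of all tested genes in DESeq2 and 14.2% at an unadjusted p in edgeR. Cardiomyocyte genes summed to 25145 to 42131 FPKM in sham and to 11913 to 23056 FPKM in ischemia, the lowest value being that of ischemia 2. Of the 8 genes, 0 passed as lower in edgeR (background 1.53%), 3 in DESeq2 (12.5%) and 2 in limma (1.88%). At an unadjusted p under 0.05 in edgeR, 3 were lower, beside 14.2% of all tested genes. Myh6, Actc1 and Ryr2 were below their sham range in every ischemia library (background 15%), with log2 fold changes of -2.38, -1.70 and -1.51. The other genes, Tnnt2, Tnni3, Pln, Myl2 and Myl3, overlapped between the groups. Their log2 fold changes were -0.43, -0.59, -0.79, -0.38 and 0.20. The part of leukocyte transcripts in the levels of the 10 genes was not tested.

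**Figure D4:**
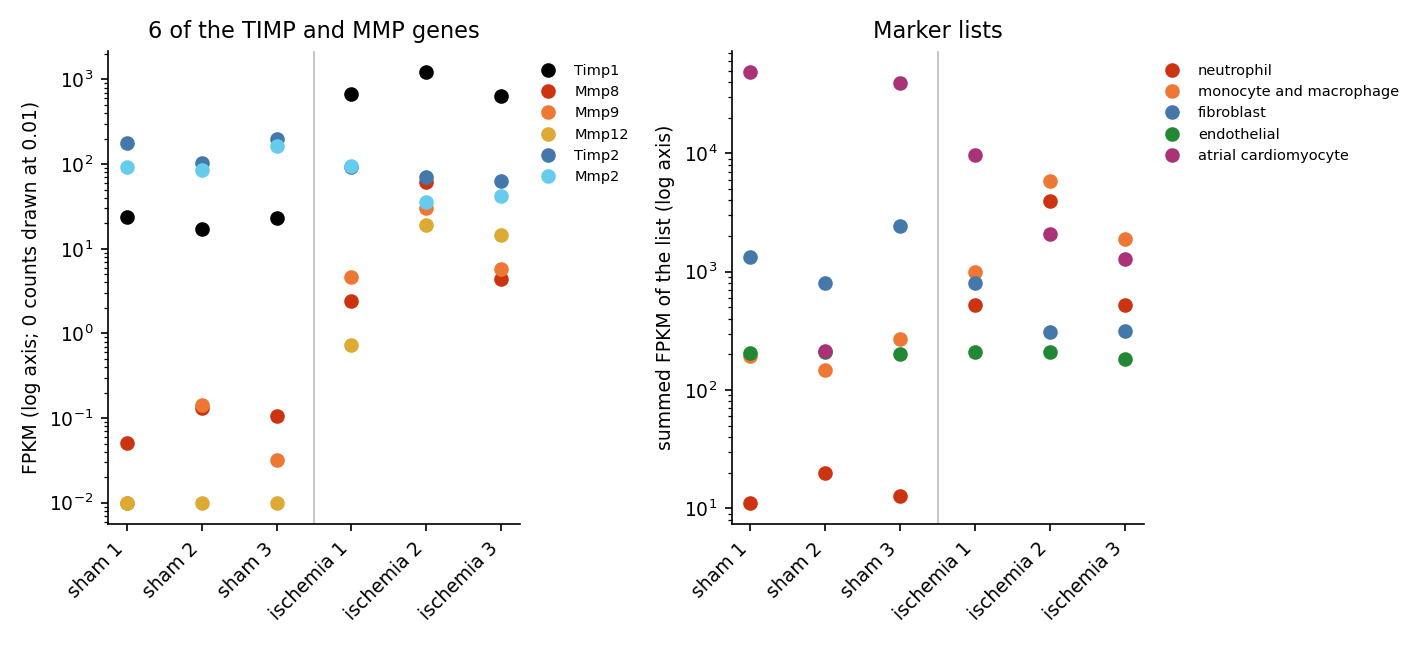
Left, FPKM (log axis) of 6 of the TIMP and MMP genes in each library, with 0 reads drawn at 0.01. Right, summed FPKM (log axis) of 5 cell type marker lists in the same libraries. Mmp8 and the neutrophil list are both highest in ischemia 2, at 61.8 and 3919 FPKM, while the endothelial list stays at 183 to 211 FPKM.

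The genes with a pattern most like that of Timp1 over the 6 libraries were Grk5, Retnlg, Slc7a5, Ran and Prmt1, by Pearson correlation of log2(FPKM + 0.1), with values of 0.997 to 0.998. For Mmp12 they were Relt, Loxl4, Mcm6, Lig3 and Ccl9, with values of 0.995 to 0.997. The 6 points fall into the sham and ischemia groups and share library depth and tissue make-up, so these values are descriptions only.

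Of 15 further MMP genes in the table, among them the chromosome 8 genes Mmp7, Mmp10 and Mmp13 described above, 6 reached the filter and were tested, and by edgeR 0 passed the adjusted threshold in either direction. DESeq2 called 1 higher and 2 lower, beside 14.8% and 12.5% of all tested genes. By limma 0 were higher and 1 lower, beside 6.09% and 1.88%. At an unadjusted p under 0.05 in edgeR, 1 was higher and 2 were lower, beside 18.2% and 14.2%. Their median log2 fold change was -0.88 (range -2.27 to 1.04), beside -0.0015 over all tested genes. Mmp15, a membrane-anchored MMP, had values of 42.3, 41.2 and 44.3 FPKM in sham and of 16.6, 3.61 and 9.72 FPKM in ischemia. The groups were well apart, with a log2 fold change of -2.16 ± 0.55 (SE), but the adjusted p of 0.063 in edgeR missed the threshold. It passed in 8 of 19 alternatives, among them DESeq2 and limma. Mmp19 had a log2 fold change of 1.04 ± 0.30 (SE) and Mmp24 one of 0.03 ± 0.29 (SE), with adjusted p of 0.079 and 0.945 in edgeR.

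ADAM and ADAMTS proteases are relatives of the MMPs that shed membrane proteins or cut proteoglycans and procollagens. Of 28 such genes 21 were tested, with 4 higher (background 5.18%), 1 lower (background 1.53%) and 16 not past the threshold in edgeR, and a median log2 fold change of 0.15. DESeq2 called 6 higher and 3 lower, and limma 5 higher and 1 lower. Over all tested genes DESeq2 called 14.8% higher and 12.5% lower, and limma 6.09% and 1.88%. Adam8, Adam12 and Adamts4 had sham means under 0.5 FPKM and entered the test only through the ischemia libraries. Adam8, a leukocyte sheddase, rose from 0.435, 0.220 and 0.845 FPKM to 8.12, 91.9 and 18.9 FPKM, with an adjusted p of 0.036 in edgeR. Adamts4, an aggrecanase, rose from 0.283, 0.440 and 0.485 FPKM to 5.82, 63.7 and 15.3 FPKM (adjusted p = 0.034, edgeR). Adam12 and Adamts1 rose with log2 fold changes of 4.71 ± 0.72 and 2.66 ± 0.50 (SE; adjusted p = 0.030 and 0.040, edgeR). Adamts2, a procollagen N-proteinase, was the 1 gene of the list called lower in edgeR and fell from 14.8, 14.6 and 26.0 FPKM to 8.25, 3.62 and 4.52 FPKM (adjusted p = 0.049, edgeR), and it was singled out after its values were seen. The well-expressed Adam19, Adam15 and Adam17, the last of which releases tumor necrosis factor and is inhibited by Timp3, had log2 fold changes of -0.45, 0.99 and 0.83 and did not pass (adjusted p = 0.165, 0.056 and 0.130, edgeR).

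Genes that activate, induce, stabilise or clear MMPs showed the most calls of the 3 wider lists. Of 28 such genes 22 were tested, with 8 higher (background 5.18%), 0 lower (background 1.53%) and 14 not past the threshold in edgeR, and a median log2 fold change of 1.30. Lower calls were 2 by DESeq2, 0 by limma and 3 at an unadjusted p under 0.05 in edgeR. The shares of all tested genes were 12.5%, 1.88% and 14.2%. Serpinb2, an inhibitor of plasminogen activators, had 4 reads in sham, all in sham 1, and 281, 765 and 34 reads in ischemia 1, 2 and 3. The ratio of summed counts was 255, with an exact 95% counting interval from 99.4 to 938 that covers counting error only and not this spread between libraries. It reached the filter only through the ischemia libraries and had an adjusted p of 0.047 in edgeR. Thbs1, a matrix protein that takes part in MMP uptake, rose from 2.40, 1.29 and 3.71 FPKM to 33.0, 342 and 103 FPKM (adjusted p = 0.033, edgeR).

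Lcn2, whose protein binds Mmp9 and protects it from degradation, rose from 4.11, 11.7 and 5.20 FPKM to 952, 137 and 337 FPKM (adjusted p = 0.035, edgeR). Among the ischemia libraries it was lowest in ischemia 2, the library in which Mmp9 was highest. Plaur, the urokinase receptor, rose with a log2 fold change of 4.87 ± 0.83 (SE; adjusted p = 0.036, edgeR). Cd63, a cell surface partner of Timp1, rose from 241, 199 and 249 FPKM to 456, 480 and 506 FPKM (adjusted p = 0.038, edgeR), and its partner Itgb1 rose by a log2 fold change of 1.62 (adjusted p = 0.048, edgeR). Sdc1, a heparan sulfate proteoglycan, was also called higher, with a log2 fold change of 3.59 (adjusted p = 0.030, edgeR). The well-expressed Bsg, an MMP inducer, Plat and Cd44, which anchors Mmp9, had log2 fold changes of -0.37, 0.56 and 2.56 and adjusted p of 0.443, 0.117 and 0.051 in edgeR.

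Over the 3 lists, 12 of 49 tested genes passed as higher and 1 as lower, beside the backgrounds of 5.18% and 1.53%. The median log2 fold change was 0.37, and 30 of the 49 were above 0. The counts of 12 and 1 fell to 0 without sham 1, sham 2, sham 3 or ischemia 3. Without ischemia 1 they were 17 and 7, beside 10.7% and 7.96% of all genes in that fit. Without ischemia 2 the log2 fold changes of Adam8, Adamts4, Thbs1, Plaur and Sdc1 were 4.78, 4.67, 4.81, 3.82 and 2.97, against 6.21, 5.96, 5.92, 4.87 and 3.59 with all libraries. That of Lcn2 was 4.94 without ischemia 1 and 6.72 without sham 2, against 5.94. Without sham 1, Serpinb2 had 0 reads in sham. The call of Adamts2 as lower was also lost with total-count or upper-quartile scaling.

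**Figure D5:**
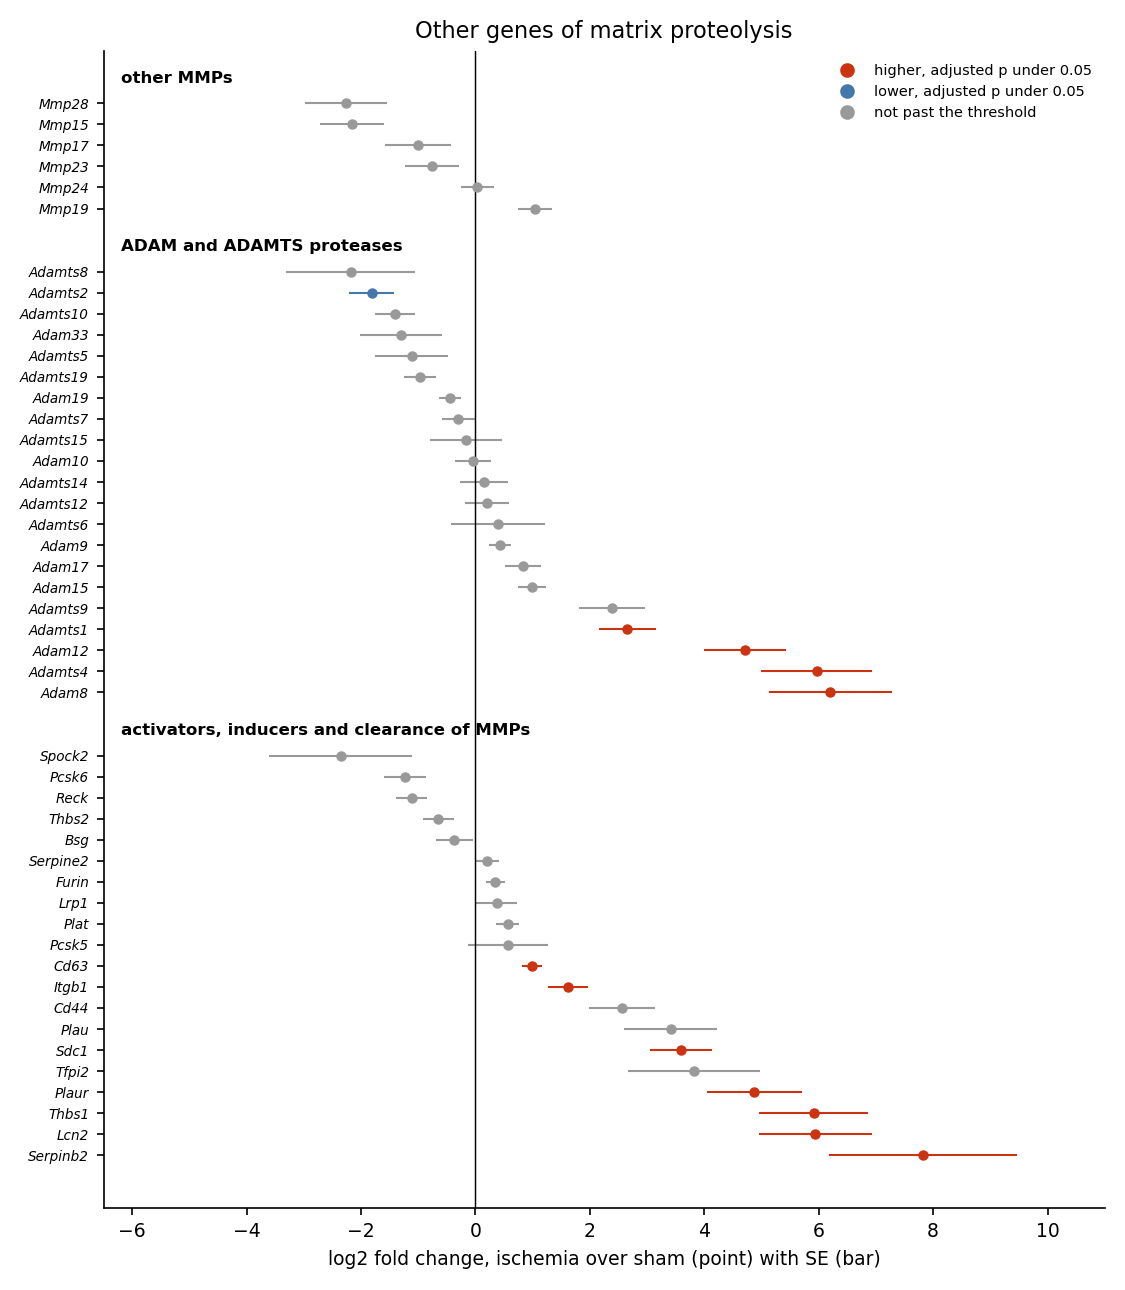
Log2 fold change of ischemia over sham (point) with its SE (bar) for 47 of the 49 tested genes of the 3 wider lists (Elane, at 0 reads in sham, is not drawn), colored by whether the adjusted p was under 0.05 in edgeR. The 4 ADAM and ADAMTS genes and 7 activators, inducers and clearance genes drawn as higher reach from 0.99 for Cd63 to 7.83 for Serpinb2, whose 4 sham reads are all in sham 1, and Adamts2 at -1.82 is the gene called lower.

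Positions of the genes follow the deposited table. Timp1 (ENSRNOG00000010208) lies on chromosome X at 1364786 to 1369384, and Timp3 and Timp4 on chromosome 7 at 23544215 to 23594133 and on chromosome 4 at 147156948 to 147163467. Each of these TIMPs lies on the minus strand inside a synapsin gene of the plus strand, Syn1, Syn3 and Syn2. The synapsin genes held 16 to 720, 6 to 43 and 28 to 1555 reads per library, and Syn2 in sham 3, at 1555, exceeded Timp4, at 1264. Timp2 (chromosome 10, 107338465 to 107386072) overlaps Cep295nl on the same strand, which held 12 to 55 reads. The library kit marks strand, but whether the counting used strand is not stated, so reads of the overlapping genes cannot be told apart with certainty.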

How the data were processed

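Total RNA libraries of 6 rat myocardium samples had been sequenced by the authors, and 1 deposited table held 32623 genes. The deposited counts were whole, unnormalized reads per gene, and the FPKM deposited by the authors were scaled by length and library size, with 0.0001 where a gene had 0 reads (printed here as 0). The submitters' processing notes name STAR and HTSeq; versions, genome build and strand setting are not given in the sources used here.

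Genes with a mean of at least 0.5 FPKM (13964) were compared with the quasi-likelihood test of edgeR 4.0.16 (R 4.3.3) on counts, with trimmed mean of M-values scaling, no covariates, two-sided p and Benjamini-Hochberg adjustment over all tested genes at 0.05. The genes and lists were chosen with earlier results of these data known. Named were the 10 TIMP and MMP genes, and of each wider list the 4 largest changes past the threshold and the 3 best-expressed genes not past it; Plaur, Sdc1, Cd63, Itgb1 and Adamts2 were added after their values were seen. Of the genes the rule names, 1 is not reported here. Not analysed here were Mmp1a, Mmp11, Mmp25, Mmp26, Ccr2, Col1a2, Pecam1 and Ttn. Alternatives were limma 3.58.1 on log2(FPKM + 0.1), + 1 and + 0.01, DESeq2 1.42.0, other scalings and filters, a replicate block and each library left out; 2 further ones were chosen after seeing the data. Sums of marker genes and Pearson correlations were computed in Python 3.11.15 with pandas 2.3.3, and plots with matplotlib 3.10.9. Tested on simulated counts for the ischemia against sham comparison (13964 genes, 200 changed by a log2 fold of 2), edgeR recovered 29.5% with 1 false call.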

Additional observations from a re-analysis of the deposited data

How the results depend on the processing

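The 4 higher calls among the TIMP and MMP genes became 3 with total-count scaling and without a filter, where Mmp12 was lost (3.65% and 2.40% of all genes higher), 2 with limma on log2(FPKM + 1) (4.70%), and 0 with the replicate number as a block (pairing), with sham 1 and ischemia 2 left out together, and with the low-atrial libraries only (sham 2 against ischemia 2 and 3, where the lone sham sample is assumed to vary like the others). The last pair of alternatives was chosen after seeing the data. In these 3 fits 0 genes of the whole table passed, with 2514 to 3349 at an unadjusted p under 0.05, and the cause was not tested. Leaving out each library in turn gave 0 to 4 higher and 0 to 2 lower calls. In these fits 0% to 10.7% of all genes were called higher and 0% to 7.96% lower. The 0 lower calls became 1 (Timp2) with DESeq2, median-ratio scaling, quantile normalization and a filter at 5 FPKM, where 12.5%, 1.81%, 3.17% and 3.57% of all genes were called lower. For the wider lists the 12 higher calls became 0 in the same 3 fits (0 to 17 with each library left out). Their 1 lower call became 7 with DESeq2, 4 with the filter at 5 FPKM, 2 with quantile normalization and with limma at each of 3 pseudocounts, and 0 with total-count or upper-quartile scaling, without a filter, with the block, with sham 1 and ischemia 2 left out and with the low-atrial libraries (0 to 7 with each library left out).

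The log2 fold change of Timp4 moved from -0.22 to 0.078 with sham 1 and ischemia 2 left out and to -1.46 with the low-atrial libraries only, and ranged from -0.81 to 0.24 with each library left out, and that of Mmp14 turned to -0.019 with the same 2 libraries left out. Those of Timp1 (4.92 to 5.41), Timp2 (-1.33 to -0.97), Timp3 (-1.11 to -0.16), Mmp2 (-1.64 to -0.75), Mmp8 (3.27 to 8.15), Mmp9 (3.33 to 9.53) and Mmp15 (-2.92 to -1.74) kept their sign in all 19 alternatives. No scaling moved the median of all tested genes by over 0.1. The chromosome 8 MMP genes other than Mmp8 and Mmp12 were under the filter of 0.5 FPKM and were not tested. The replicate numbers of the titles were not taken as pairs, since deviations of same-numbered samples from their group means correlated at -0.056, -0.094 and -0.20.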
